A study of Homo sapiens with 8 samples.

Results

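The 9 genes described here serve MHC class I antigen presentation: the heavy chains HLA-B, HLA-C, HLA-E and HLA-F, the light chain B2M, the peptide transporter subunits TAP1 and TAP2, the loading factor TAPBP and the transactivator NLRC5. They are the rows of the deposited RSEM gene table whose symbol equals one of these names, 9 of 58870 rows. All 9 passed the filter on low counts, among 13860 genes tested. Their expression was compared between 4 control libraries and 4 libraries of cells carrying an ELAPOR1 transgene, all from Panc 10.05, a human cell line established from a pancreatic ductal adenocarcinoma. ELAPOR1 encodes an endosome-lysosome associated protein, and the series title places it with the classical subtype and with metabolism of this cancer. No other treatment, genotype or time point separates the groups in the labels. The labels give neither the vector and promoter, nor what the control cells carried, nor whether the cells were 1 clone, nor whether replicates were separate cultures. P-values therefore measure the spread between these libraries, which may be technical.

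Class I molecules display peptides from inside the cell to CD8+ T cells and to natural killer cells. Proteasomes cut proteins into peptides, the TAP1-TAP2 transporter carries these into the endoplasmic reticulum, tapasin (the product of TAPBP) holds an empty heavy chain at the transporter, and the heavy chain with its peptide and B2M then travels to the surface. NLRC5 switches on heavy chain, B2M and transporter genes together, and interferon and NF-kappaB act on the same promoters. Pancreatic cancers are known for low class I at the cell surface, partly through its delivery to lysosomes.

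ELAPOR1, listed under its older symbol KIAA1324, had 1, 1, 4 and 4 expected counts in the control libraries and 7006, 6422, 5910.0 and 7368 in the ELAPOR1 libraries, so every library matched its label. Library totals were 16.6e6 to 18.1e6 expected counts in control and 13.8e6 to 17.3e6 in ELAPOR1. Across all genes, 44.7% were called different at an adjusted p under 0.05 (edgeR), with 22.6% higher and 22.1% lower in ELAPOR1. The median log2 fold change over all tested genes was 0.00087. Of 10 ductal epithelial markers all were tested, with 3 called higher and 5 lower, and their summed level was 13157 to 14565 CPM (counts per 1e6, TMM-scaled) in control and 12260.4 to 12597 in ELAPOR1. Of 12 leukocyte markers, 6 were at 0 in every library (among them CD3D, CD3E, MS4A1, NKG7 and TYROBP), and the summed level was 29.02 to 30.8 CPM in control and 44.2 to 47.7 in ELAPOR1, most of it LCP1 (21.5 ± 1.67 and 36.8 ± 1.39 CPM, SD, n = 4 each). Fibroblast and stellate cell markers summed to 4.43 to 5.54 and 3.74 to 4.54 CPM with 4 of 10 at 0, and endothelial markers to 8.32 to 10.8 and 7.05 to 8.05 CPM with 3 of 8 at 0. The part of these marker shifts in the class I values was not tested, and in bulk RNA fewer cells of a type cannot be told apart from less RNA per cell.

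The class I genes did not move as a block. TAP2 was called higher in ELAPOR1, by 27.4% of its mean CPM. HLA-E, HLA-F, B2M and TAPBP were called lower, and among them the mean CPM fell by 26.6% for HLA-F and fell by 15.2% for B2M, the ends of their range. HLA-B, HLA-C, TAP1 and NLRC5 were not called. This is 5 of 9 called (55.6%), beside 44.7% of all genes tested and 51.4% of the 10703 genes whose mean reached 5 CPM. The split was 1 higher (11.1%, beside 22.6%) and 4 lower (44.4%, beside 22.1%), and the median log2 fold change of the 9 was -0.10. For 6 of the 9, all CPM values of one group lay apart from those of the other, as they did for 39.2% of all genes. No member passed a test against a 1.5-fold change, in which 124 genes passed as higher and 91 as lower (edgeR glmTreat). Counts were high for all 9, with at least 752 in every library, and the replicates of a group varied by 1.07% to 6.21% of their mean.

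**Figure D1:**
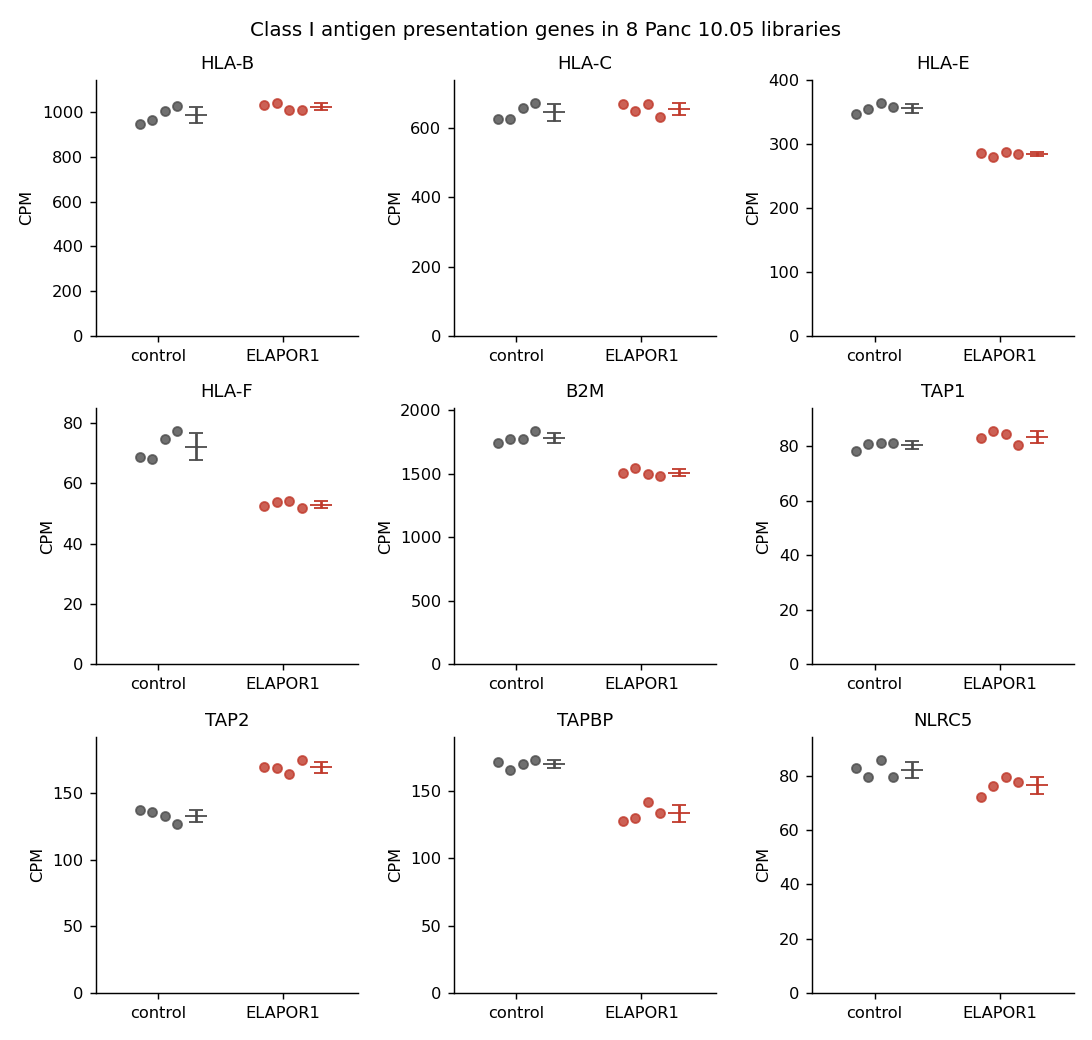
Expression of the 9 class I genes in each library, with CPM on a vertical axis that starts at 0. Points are libraries 1 to 4 of a group from left to right, and the bars are mean and SD (n = 4). The ELAPOR1 points lie below all control points for HLA-E, HLA-F, B2M, TAPBP and, narrowly, NLRC5, and above them for TAP2.

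The DNA upstream of these genes shows what their transcription start regions share. RefSeq (GRCh38.p14) gave a start for 7 of the 9, with no entry for HLA-E and NLRC5 in the table used. The 250 bases before the start are printed 5′ to 3′ on the gene's strand for the members whose values the results turn on, one per line. Capitals mark matches to any of these letters on either strand: the interferon-stimulated response element core (GAAA, 2 free bases, GAAA), its shortened form GAANNGAAA, the NF-kappaB motif (GGG, 2 free bases, TT, 1 free base, CC), the CCAAT box and TGACGC, a core bound by cyclic AMP response element factors. Matches can overlap, and adjacent matches run together.
HLA-B (chr6:31357180-31357429, minus strand): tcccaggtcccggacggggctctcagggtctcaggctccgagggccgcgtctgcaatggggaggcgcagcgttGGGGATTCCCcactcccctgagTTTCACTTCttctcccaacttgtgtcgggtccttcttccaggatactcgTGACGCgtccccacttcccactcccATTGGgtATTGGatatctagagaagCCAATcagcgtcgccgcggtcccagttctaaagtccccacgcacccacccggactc
HLA-F (chr6:29723184-29723433, plus strand): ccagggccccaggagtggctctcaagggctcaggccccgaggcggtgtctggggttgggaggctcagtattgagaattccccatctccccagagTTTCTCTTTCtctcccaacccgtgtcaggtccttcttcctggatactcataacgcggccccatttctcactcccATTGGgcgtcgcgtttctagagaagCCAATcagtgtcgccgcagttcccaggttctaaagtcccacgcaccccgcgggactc
B2M (chr15:44711267-44711516, plus strand): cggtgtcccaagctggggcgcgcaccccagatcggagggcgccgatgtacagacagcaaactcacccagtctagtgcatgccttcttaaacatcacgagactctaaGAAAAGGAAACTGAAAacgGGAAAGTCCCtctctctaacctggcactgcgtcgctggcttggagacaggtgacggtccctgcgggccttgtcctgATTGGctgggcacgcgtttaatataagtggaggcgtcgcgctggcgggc
TAP1 (chr6:32853705-32853954, minus strand): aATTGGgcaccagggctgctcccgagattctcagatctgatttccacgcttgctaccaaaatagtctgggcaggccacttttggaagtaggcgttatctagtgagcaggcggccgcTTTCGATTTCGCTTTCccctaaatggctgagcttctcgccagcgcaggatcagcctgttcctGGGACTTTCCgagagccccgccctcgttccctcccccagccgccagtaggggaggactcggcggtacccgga
TAP2 (chr6:32838740-32838989, minus strand): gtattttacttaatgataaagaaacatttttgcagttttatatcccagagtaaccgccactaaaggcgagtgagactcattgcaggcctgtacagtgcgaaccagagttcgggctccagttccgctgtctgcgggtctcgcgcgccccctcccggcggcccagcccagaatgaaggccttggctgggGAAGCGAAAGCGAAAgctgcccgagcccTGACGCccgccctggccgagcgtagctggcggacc
TAPBP (chr6:33314079-33314328, minus strand): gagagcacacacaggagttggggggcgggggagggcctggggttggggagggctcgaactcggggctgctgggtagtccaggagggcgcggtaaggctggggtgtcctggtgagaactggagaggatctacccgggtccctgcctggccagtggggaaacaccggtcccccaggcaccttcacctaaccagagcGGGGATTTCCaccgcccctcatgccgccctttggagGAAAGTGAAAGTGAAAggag

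The 2 response element forms also overlap each other. One or the other was found in 7 of the 8 RefSeq windows of these members (TAP1 has 2 starts), and in 9.08% of 35116 windows of this length in the table. The letters were chosen with the members' sequences in view, so these shares do not test enrichment. GAANNGAAA was the form in HLA-B, with its match 155 to 147 bases before the start. TAP2 carried it 63 to 55 bases before the start, beside the full core at 58 to 49, so that these matches share bases. TAPBP, B2M and TAP1 each carried the full core in 2 overlapping copies, and HLA-F carried it once, 156 to 147 bases before the start. The NF-kappaB motif was found in HLA-B, B2M, TAP1 and TAPBP, and in 5.07% of all windows. It was not in these letters in the HLA-F and TAP2 windows. The full core alone was in 3.02%, GAANNGAAA in 6.56%, CCAAT in 32.01% and TGACGC in 7.67% of all windows. The response element letters therefore stood at members that rose (TAP2), at members that fell (HLA-F, B2M, TAPBP) and at members that were not called (HLA-B, HLA-C, TAP1). Over aligned bases, the HLA-B window was 91.9% identical to that of HLA-C and 83.7% to that of HLA-F. These are reference letters, a match is no evidence of binding, and the alleles of the cell line may differ.

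HLA-B and HLA-C are the classical heavy chains, which show peptides to CD8+ T cells and bind killer cell immunoglobulin-like receptors. HLA-B (ENSG00000234745.11) is annotated on the minus strand at chr6:31269491-31357188 in GENCODE release 29 (GRCh38), a span stretched by a long transcript that runs into HLA-C. Its control libraries held 947, 965, 1003 and 1027 CPM and its ELAPOR1 libraries 1032, 1039.7, 1009 and 1011. Control libraries 1 and 2 were the lowest, and the groups overlapped because control library 4 lay above ELAPOR1 libraries 3 and 4. The mean was 986 ± 36.0 CPM in control and 1023 ± 15.4 in ELAPOR1 (SD, n = 4 each). The log2 fold change was 0.05 (SE 0.0278, 95% interval -0.0012 to 0.11, edgeR adjusted p = 0.120), and it was not called. Without control library 4 it was 0.07 with an edgeR adjusted p of 0.0179. It was also called under total count scaling (0.07, edgeR adjusted p = 0.0252) and after trends with GC content and length were removed (0.14, edgeR adjusted p = 2.1e-07). The other 16 alternatives gave no call. Its call therefore depended on control library 4 and on these settings.

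HLA-C (ENSG00000204525.16, chr6:31268749-31272130, minus strand) held 625, 626, 657 and 673 CPM in control and 669, 649, 670.2 and 632 in ELAPOR1. The libraries of the groups were interleaved. The mean moved from 645 ± 23.5 to 655 ± 18.4 CPM (SD, n = 4 each), with a log2 fold change of 0.02 and a 95% interval of -0.04 to 0.08 (edgeR adjusted p = 0.590). Of the alternatives run, only removal of the GC and length trends gave a call (0.11, edgeR adjusted p = 4.9e-05). HLA-B and HLA-C share 92.5% of their aligned coding bases, and RSEM divided reads between such copies: the expected counts were not whole in 7 of 8 libraries for HLA-B and in 8 for HLA-C. HLA genes differ greatly between people, and how well the alleles of this line match the reference used in counting was not tested.

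HLA-E and HLA-F are nonclassical heavy chains. HLA-E presents leader peptides of other class I chains to the NKG2A and NKG2C receptors of natural killer cells, and HLA-F can reach the surface without peptide. HLA-E (ENSG00000204592.9, chr6:30489467-30494205, plus strand) held 347, 355, 364 and 359 CPM in control and 286, 280.4, 287 and 285 in ELAPOR1. The lowest control library lay well above the highest ELAPOR1 library. The mean of 356 ± 7.404 CPM fell by 20.03% to 285 ± 3.06 (SD, n = 4 each), which as a log2 fold change is -0.32 (SE 0.0289, 95% interval -0.38 to -0.27, edgeR adjusted p = 3.42e-11). Its expected counts were whole in all libraries, so few of its reads were divided with other genes.

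HLA-F (ENSG00000204642.14, chr6:29722775-29738528, plus strand) held 68.5, 68.2, 74.7 and 77.1 CPM in control and 52.3, 53.6, 54.1 and 51.7 in ELAPOR1. All ELAPOR1 libraries were low and close together, while the control libraries split into a lower and a higher pair. The mean of 72.1 ± 4.48 CPM fell by 26.6% to 52.9 ± 1.14 (SD, n = 4 each). With a log2 fold change of -0.45 (SE 0.0478, 95% interval -0.54 to -0.35, edgeR adjusted p = 1.77e-09) its estimate was the lowest of the 9. Exons of HLA-F overlap the antisense HLA-F-AS1, at 1.37 ± 0.349 CPM in control and 1.39 ± 0.373 in ELAPOR1 (SD, n = 4 each). Whether strand was used in counting is not given in the sources used here, so reads of HLA-F and HLA-F-AS1 may not be told apart. The HLA-F expected counts were whole in all libraries. Its exons also overlap the pseudogenes AL645939.1 (701 shared bases) and RPL23AP1 (257), both on the opposite strand.

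The heavy chains were compared directly through log2 ratios within each library, with 8 pairs of members tested and p-values adjusted over the 8. The smallest p that 4 against 4 libraries allow is 0.0286 before adjustment. HLA-B to HLA-C differed by 0.03 between the groups, less than the spread among the ELAPOR1 libraries (exact permutation p = 0.257, adjusted 0.257, n = 4 each). HLA-B to HLA-E was 1.47 ± 0.0333 in control and 1.84 ± 0.0343 in ELAPOR1, a difference of 0.38 with every ELAPOR1 library above every control library (exact permutation p = 0.0286, adjusted 0.0327, n = 4 each). HLA-B to HLA-F differed by 0.49, with the same exact permutation p. HLA-B thus stood higher against both nonclassical chains in ELAPOR1 than in control. HLA-E to HLA-F differed by 0.12 with the groups just apart (exact permutation p = 0.0286, adjusted 0.0327, n = 4 each). Its adjusted exact permutation p was 0.0571 to 0.0653 when control library 4 or any one of the 4 ELAPOR1 libraries was left out. The groups stayed apart in each of these cases.

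Since near-identical class I genes can exchange reads in the counting, all class I HLA rows, pseudogenes included, were also summed. The 18 rows, 11 of them with counts, summed to 3354 ± 129 CPM in control and 3196 ± 43.0 in ELAPOR1 (SD, n = 4 each). The log2 ratio of the means was -0.07, and the groups overlapped. Entered as 1 feature in the fit over all genes, the sum was called lower, also at -0.07. The 4 heavy chains among the members held 61.1% to 63.2% of this sum. The summed level per library thus moved less than HLA-E or HLA-F did.

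B2M, the light chain shared by all class I heavy chains, is encoded outside the MHC on chromosome 15 (ENSG00000166710.19, chr15:44711487-44718877, plus strand). It held 1743, 1770.0, 1772 and 1833 CPM in control and 1508, 1543, 1499.6 and 1482 in ELAPOR1, so that all ELAPOR1 libraries lay below all control libraries. The mean of 1779 ± 37.8 CPM fell by 15.2% to 1508 ± 25.9 (SD, n = 4 each), with a log2 fold change of -0.24 (SE 0.0258, 95% interval -0.29 to -0.19, edgeR adjusted p = 2.08e-09). No other gene overlaps its exons, and its counts were whole in all libraries. The log2 ratio of HLA-B to B2M moved from -0.85 ± 0.0288 to -0.56 ± 0.0126, and that of HLA-C to B2M from -1.46 ± 0.0310 to -1.20 ± 0.0432 (SD, n = 4 each). Both separated the groups completely (exact permutation p = 0.0286, adjusted 0.0327, n = 4 each). B2M transcript per classical heavy chain transcript was therefore lower in the ELAPOR1 libraries.

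**Figure D2:**
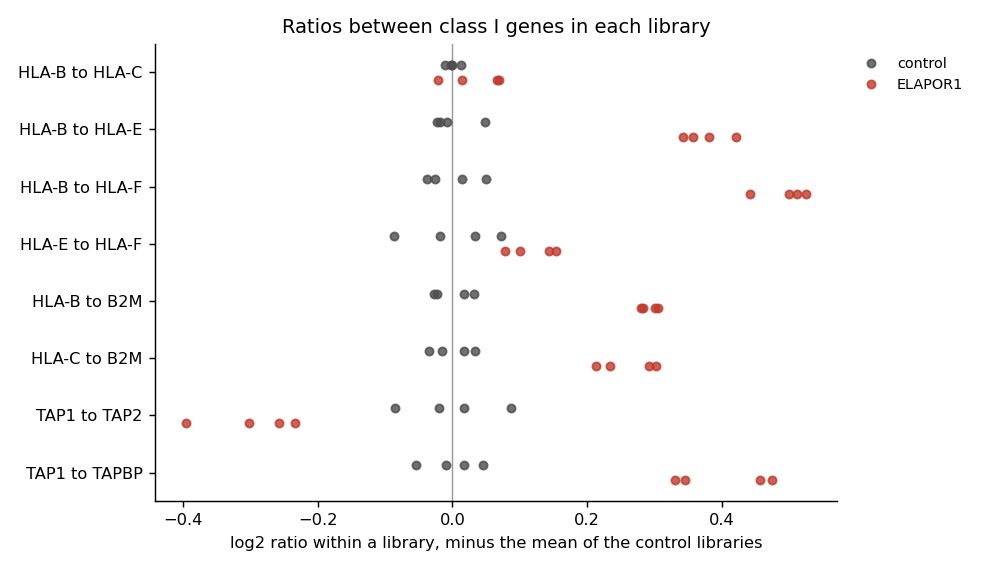
Log2 ratios between pairs of class I genes in each library, shown as the distance from the mean of the control libraries (horizontal axis), with grey points for control and red points for ELAPOR1. The HLA-B to HLA-C points overlap between groups, and the other 7 pairs are apart, from a shift of 0.12 for HLA-E to HLA-F up to 0.49 for HLA-B to HLA-F, with TAP1 to TAP2 the one pair shifted down, by -0.30.

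TAP1 and TAP2 encode the subunits of the peptide transporter and are neighbours on chromosome 6. TAP1 (ENSG00000168394.11, chr6:32845209-32853978, minus strand) held 78.1, 80.8, 81.2 and 81.3 CPM in control and 82.9, 85.4, 84.5 and 80.3 in ELAPOR1. ELAPOR1 library 4 lay inside the control range and the other ELAPOR1 libraries above it. The mean went from 80.3 ± 1.502 to 83.3 ± 2.25 CPM (SD, n = 4 each), with a log2 fold change of 0.05 and a 95% interval of -0.03 to 0.13 (edgeR adjusted p = 0.319). Its exons overlap the antisense PSMB8-AS1, which stood at 9.18 ± 0.897 and 8.86 ± 0.892 CPM (SD, n = 4 each).

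TAP2 (ENSG00000204267.14, chr6:32821833-32838780, minus strand) held 137, 136, 133 and 127 CPM in control and 169.5, 169, 165 and 175 in ELAPOR1. Every ELAPOR1 library was above every control library. The mean of 133 ± 4.69 CPM rose by 27.4% to 169.6 ± 4.30 (SD, n = 4 each), which as a log2 fold change is 0.35 (SE 0.0349, 95% interval 0.28 to 0.42, edgeR adjusted p = 3.73e-10). A read-through gene on the same strand, AL669918.1, shares 2064 exon bases with TAP2, and the TAP2 counts were not whole in any of the 8 libraries. AL669918.1 itself stood at 5.05 ± 1.56 CPM in control and 5.65 ± 2.33 in ELAPOR1, and the sum of the 2 genes went from 138 ± 4.02 to 175 ± 2.24 CPM (SD, n = 4 each). That sum again did not overlap between the groups and had a log2 ratio of 0.34. Within a library, TAP1 to TAP2 fell from -0.72 ± 0.0723 to -1.02 ± 0.0716 on the log2 scale (SD, exact permutation p = 0.0286, adjusted 0.0327, n = 4 each), so the 2 subunits did not respond alike.

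TAPBP encodes tapasin, which bridges empty class I chains to the transporter and edits their peptides. TAPBP (ENSG00000231925.11, chr6:33299694-33314387, minus strand) held 171, 165, 169.6 and 173 CPM in control and 128, 129.7, 142 and 134 in ELAPOR1. ELAPOR1 library 3 was the highest of its group and still below all control libraries. The mean of 169.8 ± 3.26 CPM fell by 21.6% to 133 ± 6.29 (SD, n = 4 each), with a log2 fold change of -0.35 (SE 0.0356, 95% interval -0.42 to -0.28, edgeR adjusted p = 5.29e-10). TAP2 and TAPBP, partners in the loading complex, thus moved in opposite directions by similar log2 amounts. TAP1 to TAPBP rose by 0.40 (exact permutation p = 0.0286, adjusted 0.0327, n = 4 each).

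NLRC5, the transactivator of class I genes, lies on chromosome 16 (ENSG00000140853.15, chr16:56989485-57083531, plus strand). It held 82.9, 79.8, 85.9 and 79.7 CPM in control and 72.1, 76.4, 79.6 and 77.9 in ELAPOR1. The groups did not overlap, but control library 4 and ELAPOR1 library 3 nearly met. The mean of 82.1 ± 2.94 CPM compared with 76.5 ± 3.24 in ELAPOR1 (SD, n = 4 each), with a log2 fold change of -0.10 (SE 0.0430, 95% interval -0.19 to -0.02) and an edgeR adjusted p of 0.0516, so it was not called. It was called under 7 of the 19 alternatives, among them DESeq2 size factors (edgeR adjusted p = 0.0479), upper-quartile scaling (0.0340) and removal of the GC and length trends (-0.13, 0.00377). It was also called without control library 1 (edgeR adjusted p = 0.0491), control library 4 (0.0307) or ELAPOR1 library 3 (0.04003). Over all alternatives its log2 fold change lay between -0.13 and -0.07.

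**Figure D3:**
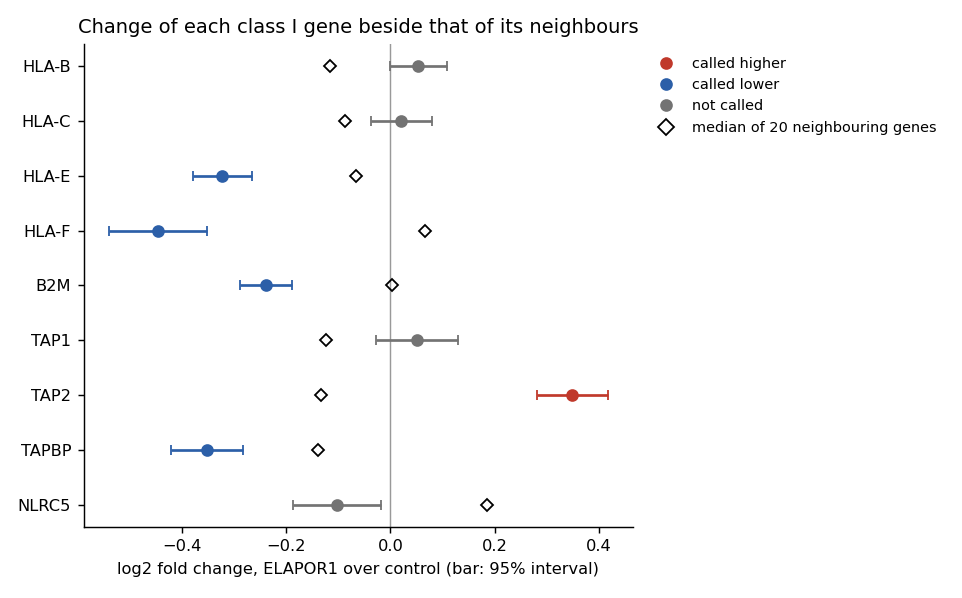
Log2 fold change of each class I gene, ELAPOR1 over control (horizontal axis), with its 95% interval from the fit over all genes, coloured by call. Open diamonds are the medians of the 10 tested genes on either side of it whose mean reached 5 CPM, other members included. TAP2 at 0.35 lies opposite to its neighbours at -0.13, and HLA-F at -0.45 lies below neighbours at 0.07.

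Of the 9 genes, 7 lie on chromosome 6 between HLA-F and TAPBP, a stretch of 3.59 Mb that many other genes share. Of the 100 other protein-coding genes tested there, 7 were called higher (7.0%) and 42 lower (42.0%), with a median log2 fold change of -0.14, beside 22.6% higher and 22.1% lower over all genes. The 3 members called lower in this stretch therefore sat among genes that were often lower too. Neighbours were taken as the 10 tested genes on either side whose mean reached 5 CPM, other members included. Those around TAPBP had a median of -0.14 and 3 of 20 above 0. The same figure around HLA-E was -0.07 with 8 of 20, and around HLA-F 0.07 with 14 of 20. The neighbours of TAP2, whose own value was 0.35, had a median of -0.13 with 5 of 20 above 0. B2M on chromosome 15 had neighbours at a median of 0.0041, and NLRC5 on chromosome 16 had neighbours at 0.18 with 16 of 20 above 0. The part of position in the members' values was not tested.

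**Figure D4:**
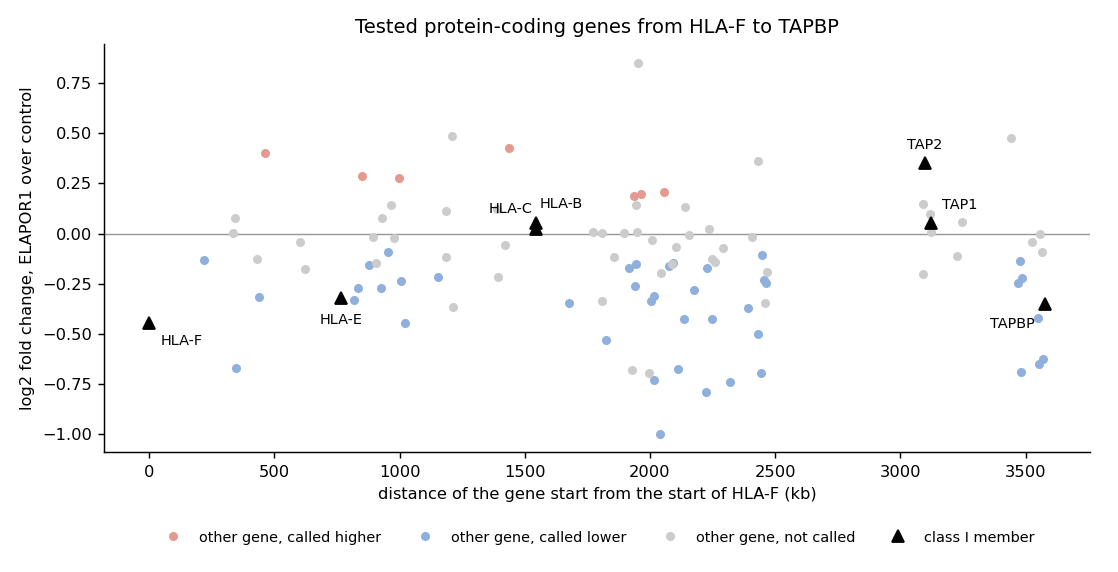
Log2 fold change, ELAPOR1 over control (vertical axis), of the tested protein-coding genes from HLA-F to TAPBP, against the distance of each gene's start from that of HLA-F in kilobases. Triangles are the 7 class I members and points the 100 other genes, of which 42 were called lower and 7 higher.

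Levels between genes were compared per length of annotated exon sequence, as RPKM (counts per kilobase and per 1e6 counts). In control libraries HLA-B was first at 323 ± 11.8 RPKM, followed by B2M at 293 ± 6.22, HLA-C at 257 ± 9.39 and HLA-E at 119.7 ± 2.49. TAPBP at 33.6 ± 0.644 and TAP2 at 20.8 ± 0.734 came next, then TAP1 at 16.7 ± 0.313 and HLA-F at 16.6 ± 1.03, whose libraries overlapped, and NLRC5 at 6.63 ± 0.237 (SD, n = 4 each). All other neighbours in this order were apart. In ELAPOR1 libraries HLA-C at 261 ± 7.34 RPKM and B2M at 248 ± 4.27 overlapped, as did TAP2 at 26.5 ± 0.672 and TAPBP at 26.3 ± 1.24 (SD, n = 4 each). On this scale TAPBP stood above TAP2 in control only. The order depended on the length used: per length of the principal transcript, an alternative added after the data were seen, B2M was first in both groups, at 1044 RPKM in control, and HLA-B second at 637. The mean of TAPBP was then above that of TAP2 in ELAPOR1 too, at 70.5 ± 3.33 and 67.9 ± 1.72 RPKM (SD, n = 4 each).

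Other chains of the class I fold were counted next, in a list of 14 that holds classical, nonclassical, pseudogene and class I-like members. Of the 12 tested, none was called higher (beside 22.6% of all genes) and 6 were called lower (50%, beside 22.1%), with a median log2 fold change of -0.18 beside 0.00087 over all genes. AZGP1, a secreted class I-like protein, fell from 8.46 ± 0.664 to 6.12 ± 0.190 CPM (log2 fold change -0.47, edgeR adjusted p = 0.00128). MICA, a stress-induced ligand of the NKG2D receptor, fell from 45.6 ± 1.74 to 35.9 ± 1.81 CPM (-0.34, edgeR adjusted p = 3.6e-06). The pseudogene HLA-V fell from 15.999 ± 2.05 to 12.7 ± 0.853 CPM (log2 fold change -0.34, edgeR adjusted p = 0.00277). Its exons overlap those of HCG4. Errors are SD with n = 4 each.

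Among 14 peptide loading and folding factors, all tested, 1 was called higher (7.14%, beside 22.6% of all genes) and 5 lower (35.7%, beside 22.1%), with a median of -0.02. PDIA3, the disulfide isomerase bound to tapasin, fell from 557 ± 9.66 to 468 ± 8.33 CPM (log2 fold change -0.25, edgeR adjusted p = 3.7e-09), as its partner TAPBP did. PRKCSH, the beta subunit of glucosidase II, fell by 0.26 on the log2 scale and UGGT2, a glucosyltransferase of glycoprotein folding, by 0.31. UGGT1, which checks peptide loading together with TAPBPR, was the one called higher (0.15, edgeR adjusted p = 0.00206), and it is named after its value was seen. The count called higher was 2 without control library 1, control library 3 or ELAPOR1 library 2. The trimming enzyme ERAP1 stood at 81.9 ± 4.603 and 82.3 ± 2.39 CPM and was not called.

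Among 15 genes of the immunoproteasome and peptide supply, 14 were tested, 5 were called higher (35.7%, beside 22.6% of all genes) and none lower (beside 22.1%), with a median of 0.02. PSME3, a nuclear proteasome activator, rose from 152 ± 8.47 to 217 ± 2.75 CPM (log2 fold change 0.52), and its exons overlap BECN1. The aminopeptidases LAP3 and NPEPPS rose by 0.40 and 0.26 on the log2 scale. The immunoproteasome subunits PSMB8 (88.1 ± 2.92 and 94.3 ± 4.87 CPM, edgeR adjusted p = 0.0583), PSMB9 (25.4 ± 1.43 and 25.5 ± 0.732 CPM) and PSMB10 (22.1 ± 2.38 and 22.1 ± 1.502 CPM) were not called and are named outside the rule (SD, n = 4 each). PSMB8 and PSMB9 lie beside TAP1 and TAP2. BLMH was listed at 0 in every library.

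Among 32 regulators of class I transcription, 30 were tested, 10 were called higher (33.3%, beside 22.6% of all genes) and 3 lower (10%, beside 22.1%), with a median of 0.07. IRF9, the DNA-binding subunit of the interferon-stimulated gene complex, rose from 20.2 ± 1.86 to 30.1 ± 1.45 CPM (log2 fold change 0.57), and IRF1, which binds the response element of class I promoters, from 32.7 ± 1.70 to 42.0 ± 1.13 CPM (log2 fold change 0.36, SD, n = 4 each). For both genes every ELAPOR1 library lay above every control library. STAT2, IFNGR2 and RFXANK were the 3 called lower, named after their values were seen. The count called lower was 5 without control library 1 and 1 without control library 2 or ELAPOR1 library 3, so it rests on single libraries. Beside these values stand those of the members with response element letters upstream, which were higher for TAP2, lower for HLA-F, B2M and TAPBP, and not called for HLA-B, HLA-C and TAP1.

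Among 19 genes of class I turnover and retention, all tested, 3 were called higher (15.8%, beside 22.6% of all genes) and 8 lower (42.1%, beside 22.1%), with a median of -0.10. MARCH9, a ubiquitin ligase that removes class I from the surface, fell by 0.38 on the log2 scale, and the ligase WWP2 rose from 61.3 ± 1.099 to 72.7 ± 3.69 CPM (log2 fold change 0.25). NBR1, the autophagy receptor known to deliver class I to lysosomes in pancreatic cancer, is outside the rule and was chosen after its values were seen. It held 184, 181, 179 and 172 CPM in control and 151, 153, 154 and 153 in ELAPOR1, with no overlap and a log2 fold change of -0.23 (edgeR adjusted p = 6.2e-07). The 20 genes around it had a median of 0.27 (15 of 20 above 0).

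Most class II genes were at very low counts in all libraries. Of the 15 listed, 5 were tested, and 10 were not because they held at most 11.1 expected counts in any library, including the class II transactivator CIITA, and 4 of the 10 were at 0 throughout. Of the 5, 1 was called higher (20%, beside 22.6% of all genes) and none lower (beside 22.1%). The gene called was IFI30, a lysosomal reductase, from 10.02 ± 1.22 to 12.4 ± 0.715 CPM (SD, n = 4 each, log2 fold change 0.30, edgeR adjusted p = 0.0129). IFI30 was not called without control library 2 (0.24, edgeR adjusted p = 0.0661). Of 14 NKG2D and checkpoint ligands, 12 were tested, 4 were called higher (33.3%, beside 22.6% of all genes) and 2 lower (16.7%, beside 22.1%). Those called lower were MICA and CD47, which signals to phagocytes and fell from 96.0 ± 6.08 to 73.5 ± 3.66 CPM (-0.39). The NKG2D ligands did not all fall. ULBP3 (log2 fold change 1.08) and RAET1L (1.89), with means below 5 CPM, were called higher, and MICB was not called. CD274 was also called higher (0.12), and these genes are named outside the rule. PDCD1LG2, a ligand of PD-1, rose from 12.1 ± 0.703 to 15.3 ± 0.796 CPM (0.34, SD, n = 4 each).

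**Figure D5:**
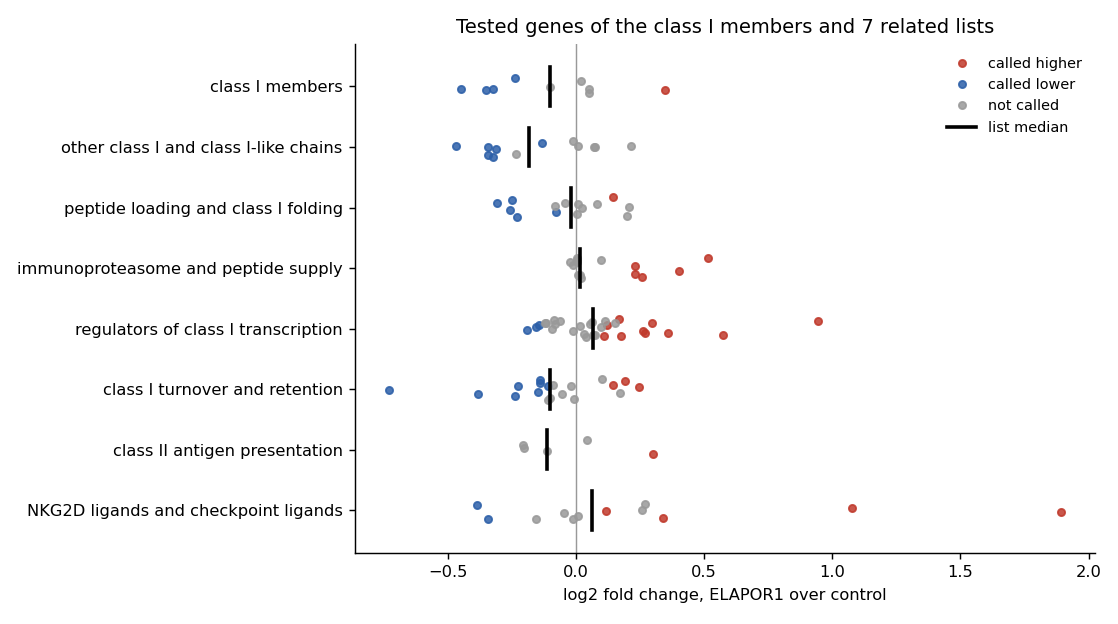
Log2 fold change, ELAPOR1 over control (horizontal axis), of every tested gene in the class I group and in 7 related lists, coloured by call, with a bar at each list median. The class I members spread from -0.45 for HLA-F to 0.35 for TAP2, and the other class I chains hold no gene called higher.

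Among 10694 genes whose mean reached 5 CPM, likeness to the members was measured as the Pearson correlation over the 8 libraries with the mean of the members' centred log2(CPM + 1). That mean lay above 0 in every control library and below 0 in every ELAPOR1 library, so any gene lower in ELAPOR1 shares it, and 983 genes had r above 0.9. The most alike were DDAH2 (r = 0.998), RFC4 (0.996), ARHGAP45 (0.992) and LLGL2 (0.992). DDAH2 is itself a gene of the MHC region, with 77.7 ± 4.89 CPM in control and 61.6 ± 1.69 in ELAPOR1 (SD, n = 4 each). TAP2, which rose, does not follow the mean that these genes resemble.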

How the data were processed

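RNA was extracted with TRIzol and sequenced on an Illumina NextSeq instrument, per the labels' protocols. The authors deposited expected counts per gene, 1 column per library, with 15.0% of nonzero values not whole (tolerance 0.001). The submitters' processing notes name cutadapt, STAR, RSEM, DESeq2 and hg38 without versions, and the annotation release and use of strand are not given in the sources used here. Genes were matched to GENCODE release 29 (GRCh38) for position and length. Of the identifiers, 58597 were found there without their version number and 47420 with it.

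After rounding, expected counts were fitted in edgeR 4.0.16 (R 4.3.3, filterByExpr, TMM, robust glmQLFit and glmQLFTest, two-sided, no covariate). P-values were adjusted by the Benjamini-Hochberg method over 13860 genes, with calls made at an adjusted p under 0.05. The fit's common biological coefficient of variation came to 0.0401. The standard error given is the log2 fold change divided by the square root of F. CPM and RPKM use TMM-scaled totals. Ratios are log2 of (CPM + 0.5) values, compared by a two-sided exact permutation test. Every pair of replicates differed by more than counting noise, and no library was counted as a repeat.

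The 9 members, the 7 lists (121 genes) and the 4 marker lists were chosen with earlier results of these data known. The genes named are all members, ELAPOR1, the 3 called genes of each list with the largest change and a mean of at least 5 CPM, and the 5 most correlated genes. The motif letters were chosen with the promoter sequences in view. Some genes of the lists are counted and not reported singly here.

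The alternatives were DESeq2 size factors, total count and upper-quartile scaling, the DESeq2 1.42.0 Wald test, limma-voom (limma 3.58.1), other filters on low counts, a stricter threshold of 0.01, a test against a 1.5-fold change, removal of GC and length trends (splines with 5 degrees of freedom, 99.8% of genes with a value), a replicate block, the class I rows summed to 1 feature, and each library left out in turn. On counts simulated for the comparison of ELAPOR1 with control (13742 genes fitted), 73.6% of genes changed 1.25-fold, 90.6% of those changed 1.5-fold and 100% of those changed 2-fold or 4-fold were called. In this simulation 13542 genes were left unchanged and all genes had the same dispersion. Many more genes were called in the data, so the shares called may differ there. Plots were drawn with matplotlib 3.10.9.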

Additional observations from a re-analysis of the deposited data

Results flagged for a closer look

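In 2 of 84 groups of 4 libraries examined among the members and the named genes, 1 library stood apart from the other 3 by Dixon's criterion, where chance gives about 1 in 20, or 4.2. TAP1 stood at 78.1 CPM in control library 1, and its other control libraries lay between 80.8 and 81.3. LAP3, the aminopeptidase, stood at 79.5 CPM in control library 2, and its other control libraries lay between 84.4 and 84.7. In both cases the library was low.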

How the results depend on the processing

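HLA-E, HLA-F, B2M, TAP2 and TAPBP kept their call and direction under 18 of the 19 alternatives that gave them a value each, all but the test against a 1.5-fold change. That test left 0 members and 0 genes of the MHC stretch in either direction, 2 list genes higher and 0 lower, and 124 genes higher and 91 lower overall. Members called higher were 2 under total count scaling, 3 with GC and length trends removed and 2 without control library 4, which added HLA-B and, for the trends, HLA-C. Genes of the stretch called higher were 12 and 13 under the first and second of these, beside 7. A replicate block changed no call of a member. Same-numbered libraries correlated by -0.0235 to 0.0356, so the numbers do not pair them. With 4 pairs no sign-flip p can fall below 0.125, and under that replicate block the 7 ratios that had separated the groups kept their differences of 0.38, 0.49, 0.12, 0.29, 0.26, -0.30 and 0.40 at an adjusted p of 0.143 (exact). Over the libraries left out in turn, called members ranged from 1 to 2 higher and 4 to 5 lower, called list genes from 21 to 26 and 19 to 25, genes of the stretch from 6 to 8 and 39 to 46, and all genes from 2805 to 3125 and 2746 to 3191. The ratios ranged from 0.020 to 0.050 for HLA-B to HLA-C, which was called without ELAPOR1 library 3 (adjusted exact p = 0.0327), and from 0.090 to 0.14 for HLA-E to HLA-F. Per principal transcript length, control levels were 1044 RPKM for B2M, 637 for HLA-B, 420.1 for HLA-C, 137 for HLA-E, 89.96 for TAPBP, 53.3 for TAP2, 44.1 for HLA-F, 27.2 for TAP1 and 12.03 for NLRC5, since shorter lengths divide the same counts. With the class I rows summed to 1 feature, where HLA-B, HLA-C, HLA-E and HLA-F have no value of their own, TAP2 was the 1 called higher, and the 3 called lower were B2M, TAPBP and the sum itself (-0.07). Scaling moved the median of all genes by at most 0.0213. Depth and replicate spread together gave the members standard errors of 0.0258 to 0.0478 on the log2 scale. Apart from what the settings change by construction, the cause of each changed call was not tested.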
